A study of Mesocricetus auratus with 8 samples.

Results

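The genes described are 10 core genes of the Notch pathway, taken from the deposited table by gene symbol and ordered by role. They are the receptors Notch1, Notch2 and Notch3, the ligands Dll1, Jag1 and Jag2, the DNA-binding factor Rbpj, and the target repressors Hes1, Hey1 and Heyl. All 10 symbols were found among the 17590 genes with values, and all 10 passed the filter on low counts. The cells were primary satellite cells (SCs), muscle stem cells that lie along the fibres, isolated with collagenase from hindlimb muscle of wild-type male Syrian hamsters (Mesocricetus auratus, Slc:Syrian) aged 8 to 16 weeks and purified by preplating. Cells of both groups were kept on Matrigel at 37°C for 48 h in growth medium holding bFGF (10 ng/mL), chick embryo extract (1%) and FBS (30%), and then for 24 h in the same medium with 100 mM HEPES. Control libraries (n = 4) were made at that point, and cold libraries (n = 4) after a further 24 h at 4°C without medium change. The titles place all 4 controls on day 3, whereas the treatment label counts 3 days at 37°C for control replicate 1, 4 for replicate 2, 5 for replicate 3 and 6 for replicate 4. These labels conflict, and the days of the titles are used here. By them no control was kept at 37°C for the further 24 h, so time in culture and cold cannot be told apart.

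Notch receptors are cell-surface proteins that are activated by ligands of the Delta and Jagged families on neighbouring cells. Ligand binding exposes the receptor to cleavage by an ADAM protease and then by γ-secretase, which frees the intracellular domain. In the nucleus this domain binds RBPJ and a Mastermind coactivator, and genes of the Hes and Hey families of repressors are switched on. Without it, RBPJ holds corepressors at the same genes. In skeletal muscle, Notch signalling is known for keeping SCs quiescent and for holding back myogenic differentiation.

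Expected counts summed to between 16530747 and 18533801 per library, with similar totals in both groups. The first principal component of all tested genes held 54.5% of the variance and set replicates 1 and 2 of either group against replicates 3 and 4, and the second, with 17.9%, separated cold from control. The libraries of replicates 1 and 2 therefore stand apart from those of replicates 3 and 4, and values for each side are given beside the calls. Each side holds 2 control and 2 cold libraries. The sides were chosen after the split was seen in these same libraries, so p-values of fits to 1 side are descriptive only. The summed level of 10 myoblast markers, Pax7, Myf5 and Myod1 among them, lay between 2223 and 2622 TPM (a transcript level scaled for transcript length and library size) in controls and between 2120 and 2460 TPM in cold. When libraries were paired by replicate number, 4 of these 10 were lower in cold and 0 higher, beside 4.07% and 1.26% of all genes. Without pairing 0 and 0 were called, beside 0.072% and 0%. The 4 paired log2 fold changes were −0.13 for Myod1, −0.32 for Cdh15, −0.29 for Itga7 and −1.83 for Chodl (edgeR adjusted p between 1.14e-05 and 0.0200). The summed level of 7 fibroblast markers was between 1078 and 1611 TPM in controls and between 1064 and 1561 TPM in cold, so transcripts of these genes were present in every library. Which cells made them was not tested. By staining, the study found the great majority of its isolated hamster cells positive for Pax7 or MyoD. The endothelial markers summed to at most 4.33 TPM and the Schwann cell markers to at most 3.91 TPM. The immune markers summed to between 26.0 and 55.7 TPM, most of it from Cd68, while Ptprc, the pan-leukocyte gene, averaged 0.005 TPM in controls and 0.0175 TPM in cold.

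None of the 10 Notch genes was called different between cold and control over all 8 libraries. In the edgeR quasi-likelihood test over all 12506 genes, 0 of 10 had an adjusted p under 0.05 in either direction, with 0 of 10 at an unadjusted p under 0.05 (6.70% of all genes), and 0 of 10 passed both this limit and a log2 fold change of at least 1. Over all genes, 0.072% were called lower in cold and 0% higher by the adjusted p, and 0.04% lower and 0% higher by both limits. With the replicate number as a block, which removes differences shared by the control and cold libraries of a number, the shares over all genes were 4.07% lower and 1.26% higher by the adjusted p, and 0.808% lower and 0.04% higher by both limits. In this paired fit, 0 of the 10 Notch genes passed, and 1, Hes1, had an unadjusted p under 0.05, beside 18.2% of all genes. DESeq2 called 0 of 10 without the block and 0 of 10 with it, with 0 and 1 at an unadjusted p under 0.05 (4.60% and 7.21% of all genes), against 0.924% of all genes called lower and 0.0209% higher without the block, and 2.23% and 0.256% with it. Ranges of TPM in the 4 control and the 4 cold libraries overlapped for each of the 10 genes, whereas they did not overlap for 2.41% of all genes with cold lower and for 2.27% with cold higher.

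**Figure D1:**
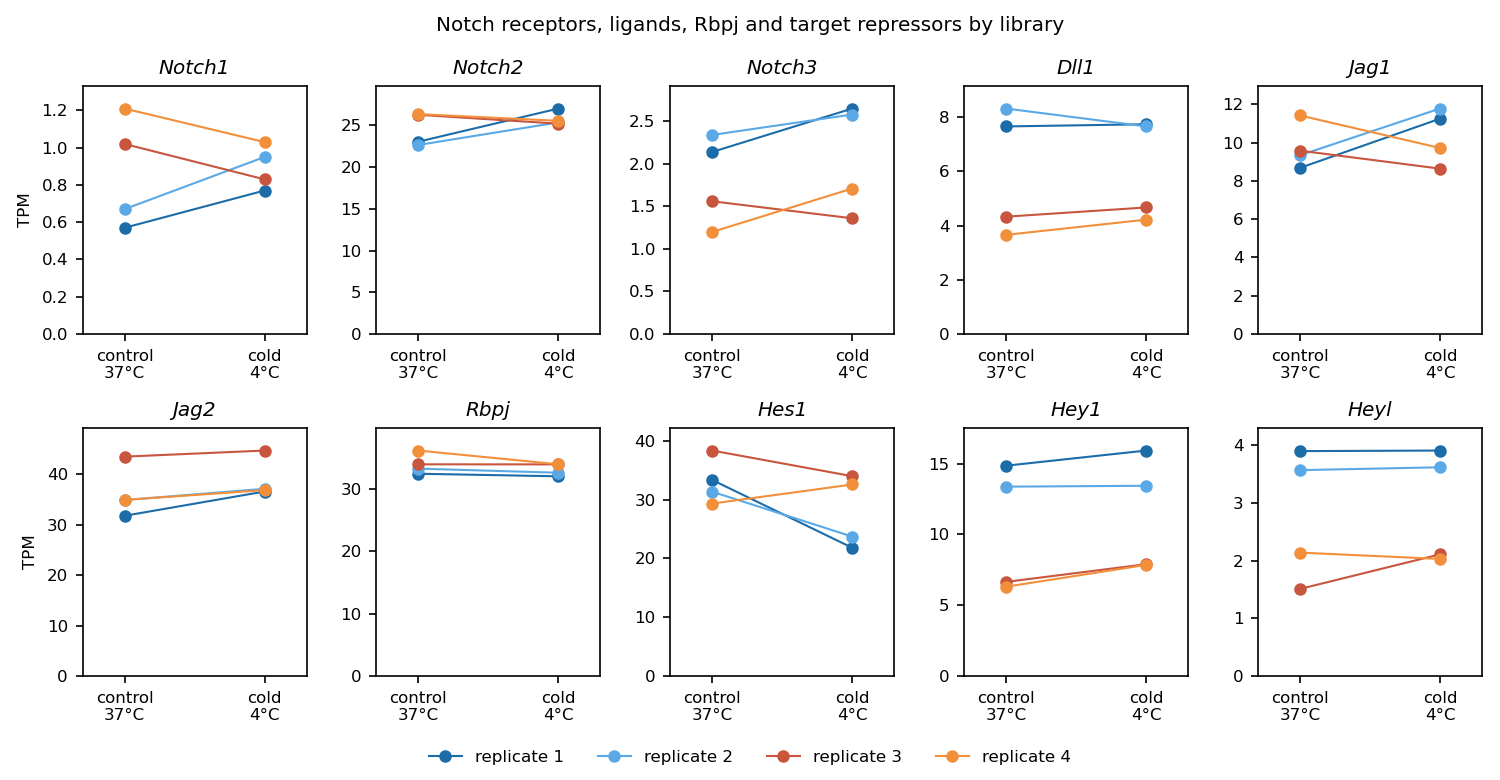
Level (TPM, linear axis from 0) of each of the 10 Notch genes in the 4 control libraries at 37°C and the 4 cold libraries after 24 h at 4°C, with a line joining the libraries of one replicate number and one colour per number. The points of control and cold overlap in every panel, and for Dll1, Hey1, Heyl and Notch3 the 2 blue lines of replicates 1 and 2 lie above the red and orange lines of replicates 3 and 4.

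The median log2 fold change (cold minus control) of the 10 genes was 0.043, beside 0.0071 over all genes tested. Their median change regardless of sign was 0.062, beside 0.069 over all genes. The fitted changes lay between −0.26 for Hes1 and 0.17 for Notch3, with 3 genes below 0 and 7 above. In the paired fit all 95% intervals lay between −0.46 and 0.39, so a change of the size of the study's own limit, a log2 fold change of 1 either way, fell outside the interval of each of the 10 genes. Without the block all 10 intervals also stayed within 1 of 0, the widest being that of Hey1, from −0.71 to 0.91.

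Among the receptors, Notch2 was by far the most abundant. Notch2 (NCBI Gene 101836323) was at 23.0, 22.6, 26.3 and 26.3 TPM in control replicates 1 to 4 and at 27.0, 25.3, 25.2 and 25.5 TPM in cold replicates 1 to 4. Its mean was 24.6 ± 2.0 TPM in controls and 25.8 ± 0.835 TPM in cold (SD, n = 4 each), from 2900 to 3575 counts per library. The log2 fold change was 0.053 (SE 0.049, 95% interval −0.058 to 0.16, edgeR adjusted p = 0.999). The 2 groups overlapped, and cold was the higher library in 2 of 4 pairs.

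Notch3 was a minor receptor in these cells. In adult muscle it is known from SCs and from vascular mural cells. Notch3 (NCBI Gene 101825264) was at 2.14, 2.34, 1.56 and 1.20 TPM in control replicates 1 to 4 and at 2.65, 2.58, 1.36 and 1.71 TPM in cold. Replicates 1 and 2 were the high libraries and replicates 3 and 4 the low ones in both groups, and the groups overlapped. The change was 0.17 on the log2 scale (SE 0.28, 95% interval −0.47 to 0.81, edgeR adjusted p = 0.999), with means of 1.81 ± 0.524 and 2.08 ± 0.640 TPM (SD, n = 4 each) and 114 to 263 counts per library.

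Notch1, a receptor much studied in SCs, was the lowest of the 10 genes. Notch1 (NCBI Gene 101837819) was at 0.57, 0.67, 1.02 and 1.21 TPM in control replicates 1 to 4 and at 0.77, 0.95, 0.83 and 1.03 TPM in cold. Control replicates 1 and 2 were the 2 lowest libraries and control replicate 4 the highest, with the cold libraries between them. On the log2 scale, cold minus control was 0.032 (SE 0.21, 95% interval −0.45 to 0.51, edgeR adjusted p = 0.999). These values rest on 65 to 138 counts per library, the fewest of the 10 genes.

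Notch2 held 90.1% ± 1.52 of the receptor TPM summed over the 3 genes in controls and 89.7% ± 1.85 in cold (SD, n = 4 each), with a range from 87.8% to 92.0% over the 8 libraries. Notch3 held 6.76% in controls and 7.17% in cold, and Notch1 3.14% and 3.12%. The order Notch2, Notch3, Notch1 held in 7 of 8 libraries, and in control replicate 4 Notch3 and Notch1 were at 1.20 and 1.21 TPM. The receptor sum was 27.2 ± 1.79 TPM in controls and 28.7 ± 1.28 TPM in cold.

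Of the ligands, Jag2 was the most abundant and had the highest level of all 10 genes. Jag2 (NCBI Gene 101825562) was at 31.8, 34.9, 43.5 and 34.9 TPM in control replicates 1 to 4 and at 36.6, 37.1, 44.7 and 36.8 TPM in cold. Replicate 3 was the highest library in both groups, and cold was above control in 4 of 4 pairs, by less than the gap from replicate 3 to the other replicates. The log2 fold change was 0.081 (SE 0.091, 95% interval −0.12 to 0.29, edgeR adjusted p = 0.999), and in the paired fit it was 0.084 (SE 0.042, 95% interval −0.0037 to 0.17, edgeR adjusted p = 0.30). The means were 36.3 ± 5.04 and 38.8 ± 3.93 TPM (SD, n = 4 each).

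Jag1, the other Jagged ligand, had differences of opposite sign on the 2 sides of the library split. Jag1 (NCBI Gene 101836967) was at 8.68, 9.34, 9.58 and 11.4 TPM in control replicates 1 to 4 and at 11.3, 11.8, 8.64 and 9.72 TPM in cold. Cold was the higher library in pairs 1 and 2 and the lower one in pairs 3 and 4. Over all 8 libraries the log2 fold change was 0.071 (SE 0.11, 95% interval −0.18 to 0.32, edgeR adjusted p = 0.999). In replicates 1 and 2 alone it was 0.29 (SE 0.067, edgeR adjusted p = 0.00760), and in replicates 3 and 4 alone −0.18 (SE 0.10, edgeR adjusted p = 0.997). The difference between the 2 sides was not tested.

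Dll1, the Delta ligand that in muscle is known from myogenic cells, differed far more between replicates than between conditions. Dll1 (NCBI Gene 101839235) was at 7.66, 8.32, 4.33 and 3.66 TPM in control replicates 1 to 4 and at 7.74, 7.66, 4.67 and 4.22 TPM in cold. Every library of replicates 1 and 2 was above every library of replicates 3 and 4, whatever the temperature. The means were 5.99 ± 2.34 TPM in controls and 6.07 ± 1.89 TPM in cold (SD, n = 4 each), and the log2 fold change was −0.012 (SE 0.32, 95% interval −0.74 to 0.72, edgeR adjusted p = 0.999). In the paired fit the value was 0.0062 (SE 0.084, 95% interval −0.17 to 0.18, edgeR adjusted p = 0.981).

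Jag2 held 69.5% of the ligand TPM in controls and 70.3% in cold, Jag1 18.8% in each, and Dll1 11.7% and 11.0%. The share of Dll1 ran from 7.32% to 15.9% over the control libraries and from 8.05% to 13.9% over the cold libraries. The ligand sum was 52.0 ± 4.03 TPM in controls and 55.2 ± 3.12 TPM in cold (SD, n = 4 each).

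Rbpj, which binds DNA for all Notch receptors, was the steadiest of the 10 genes across libraries. Rbpj (NCBI Gene 101841873) was at 32.4, 33.3, 34.0 and 36.2 TPM in control replicates 1 to 4 and at 32.0, 32.6, 33.9 and 34.0 TPM in cold. Its coefficient of variation was 4.70% in controls and 2.93% in cold, beside 43.3% and 36.0% for Hey1. Cold was the lower library in 4 of 4 pairs, and the ranges overlapped. On the log2 scale, cold minus control was −0.054 (SE 0.041, 95% interval −0.15 to 0.039, edgeR adjusted p = 0.984), from 2308 to 2627 counts per library.

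Hes1, a repressor of the basic helix-loop-helix (bHLH) class and a widely used Notch target, had the largest fitted change of the 10 genes, with the low cold values in replicates 1 and 2. Hes1 (NCBI Gene 101839463) was at 33.3, 31.3, 38.3 and 29.3 TPM in control replicates 1 to 4 and at 21.8, 23.7, 34.0 and 32.6 TPM in cold. Cold replicates 1 and 2 were the 2 lowest libraries, while cold replicates 3 and 4 lay within the control range. The means were 33.1 ± 3.87 TPM in controls and 28 ± 6.15 TPM in cold (SD, n = 4 each), from 347 to 543 counts per library, and cold was lower in 3 of 4 pairs.

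For Hes1 the log2 fold change was −0.26 (SE 0.15, 95% interval −0.59 to 0.070, edgeR adjusted p = 0.881), and the exact two-sided permutation test of its log2 TPM over 70 arrangements gave p = 0.257, where 0.0286 is the smallest p this design allows. In the paired fit it was −0.26 (SE 0.094, 95% interval −0.46 to −0.068, edgeR adjusted p = 0.123). Leaving out the pair of replicate 4 turned this into a call, with a log2 fold change of −0.42 and an edgeR adjusted p of 0.00161, in a fit that called 4.88% of all genes lower. Leaving out the pair of replicate 1 gave −0.15 (edgeR adjusted p = 0.534), that of replicate 2 −0.21 (0.442) and that of replicate 3 −0.30 (0.165). In replicates 1 and 2 alone the log2 fold change was −0.56 (SE 0.082, edgeR adjusted p = 9.99e-05), and in replicates 3 and 4 alone −0.010 (SE 0.13, edgeR adjusted p = 0.999). Whether the 2 sides differ in this change was not tested, and the sides were chosen from these same libraries. The fit to replicates 1 and 2 called 6.85% of all genes lower and 4.73% higher, Hes1 and Jag1 among them, and the fit to replicates 3 and 4 called 0.381% lower and 0.0159% higher, with 0 of the 10 Notch genes.

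**Figure D2:**
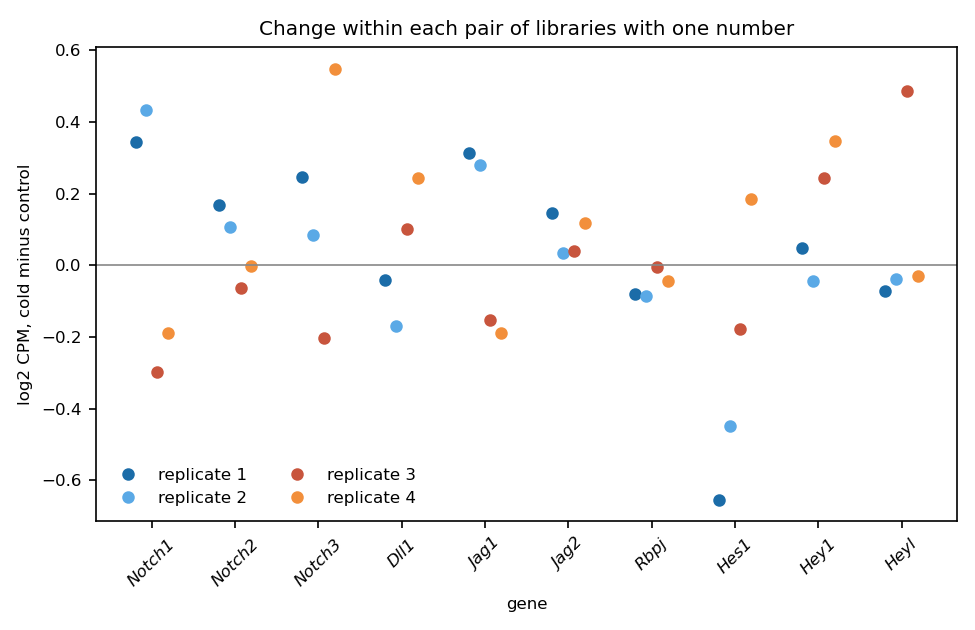
Difference in log2 CPM (counts scaled to library size, cold minus control) between the libraries of one replicate number, for each of the 10 Notch genes, with blue points for replicates 1 and 2 and red and orange points for replicates 3 and 4. For Hes1 the points run from −0.65 in replicate 1 to 0.19 in replicate 4, and for Jag1 and Notch1 both blue points are above 0 and both others below it.

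Hey1, a bHLH repressor of the Hey family, followed the library split with the widest spread of the 10 genes. Hey1 (NCBI Gene 101840247) was at 14.9, 13.4, 6.65 and 6.31 TPM in control replicates 1 to 4 and at 15.9, 13.4, 7.90 and 7.85 TPM in cold. The 4 libraries of replicates 1 and 2 were all above the 4 libraries of replicates 3 and 4. By TPM, cold was higher in 4 of 4 pairs, but in log2 CPM (counts scaled to library size) the second pair was at −0.043. The log2 fold change was 0.10 (SE 0.36, 95% interval −0.71 to 0.91, edgeR adjusted p = 0.999), and 0.12 in the paired fit (SE 0.083, 95% interval −0.053 to 0.29, edgeR adjusted p = 0.488).

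Heyl, another Hey repressor, also had replicates 1 and 2 above replicates 3 and 4 in both groups, at a lower level. Heyl (NCBI Gene 101828503) was at 3.90, 3.57, 1.51 and 2.14 TPM in control replicates 1 to 4 and at 3.91, 3.62, 2.11 and 2.03 TPM in cold. The gap between replicate 3 in control and in cold was the largest of its 4 pairs, and the other 3 pairs were nearly level. On the log2 scale, cold minus control was 0.034 (SE 0.35, 95% interval −0.75 to 0.82, edgeR adjusted p = 0.999), from 76 to 220 counts per library.

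Hes1 made up 72.2% ± 9.23 of the TPM of the 3 repressors in controls and 66.1% ± 12.8 in cold (SD, n = 4 each), Hey1 21.8% and 26.9%, and Heyl 5.95% and 6.96%. The lowest Hes1 share was 52.4%, in the cold libraries, where the highest was 77.2%, and the control libraries ran from 64.0% to 82.5%. The repressor sum was 46.2 ± 6.06 TPM in controls and 42.2 ± 1.37 TPM in cold.

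By mean TPM in controls, the 10 genes ran in the order Jag2, Rbpj, Hes1, Notch2, Hey1, Jag1, Dll1, Heyl, Notch3 and Notch1. Neighbours in this order had ranges that did not overlap over the 4 control libraries only for Hes1 above Notch2, Notch2 above Hey1, and Jag1 above Dll1. Over the 4 cold libraries Notch2 was again apart from Hey1 and Jag1 from Dll1, and Hes1 and Notch2 overlapped. Jag2 was apart from Rbpj, Dll1 from Heyl and Notch3 from Notch1 in the cold libraries alone. The steps from Notch2 to Hey1, from Jag1 to Dll1 and from Dll1 to Heyl each held in 8 of 8 libraries.

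**Figure D3:**
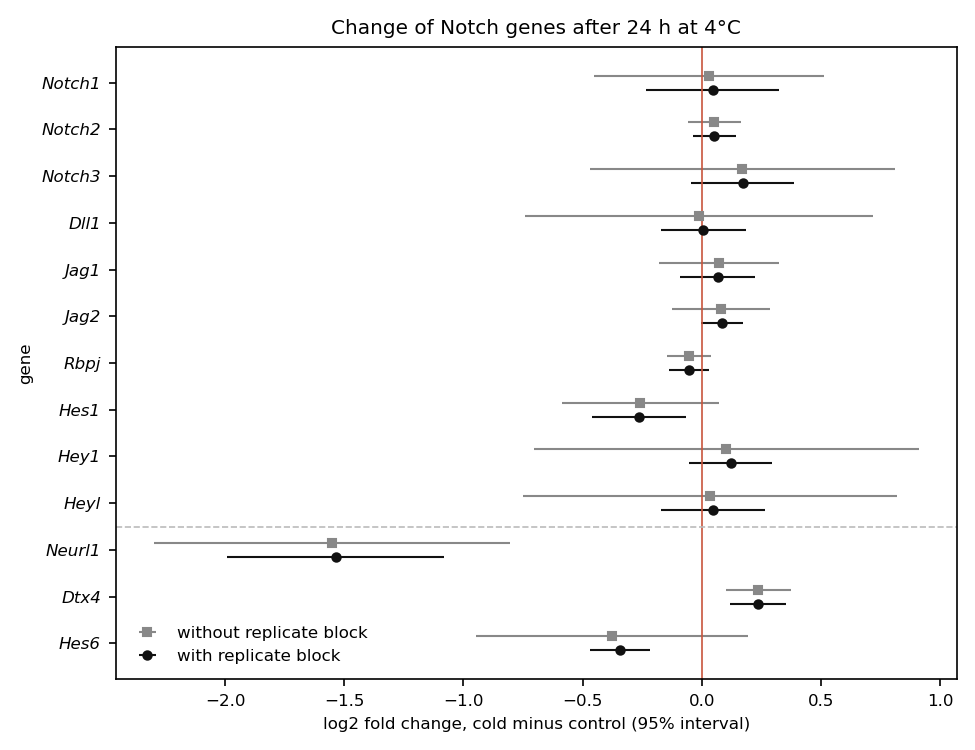
Log2 fold change (cold minus control) with its 95% interval from edgeR, for the 10 Notch genes above the dashed line and for the 3 other pathway genes called in the paired fit below it, with grey squares for the fit without and black circles for the fit with the replicate block. The intervals of Dll1, Hey1 and Heyl narrow most with the block, and Neurl1 at −1.54 lies well apart from the 10 genes.

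Dll1, Hey1, Heyl and Notch3 differed far more between the 2 sides of the library split than between cold and control. Dll1 was 2.0-fold higher in the mean of replicates 1 and 2 than in that of replicates 3 and 4 in controls and 1.73-fold higher in cold, Hey1 2.18-fold and 1.87-fold, Heyl 2.05-fold and 1.82-fold, and Notch3 1.62-fold and 1.70-fold. These 4 of 10 genes were at least 1.5-fold higher on that side in both groups, and 0 of 10 were at least 1.5-fold lower. Of the 49 other pathway genes tested, 1 (2.04%) was higher by this measure, the atypical ligand gene Dner, and 2 (4.08%) were lower, while over all genes tested 1.76% were higher and 5.81% lower. This is a description of 8 libraries with no test, since the split was known from the same libraries.

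Notch1 had the opposite order in controls, at 0.556 times the level of replicates 3 and 4, but was nearly level in cold, at 0.925 times. Jag1 was at 0.858 times in controls and 1.25 times in cold. The replicate number took a median of 77.4% of the sum of squares of log2 CPM over the 10 genes, beside 64.8% over all genes tested. For Dll1 it took 97.4% and the condition 0.12%, and for Rbpj 35.7% and 47.1%.

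Summed markers of other states and cell types differed across the same split, though not every marker did. The summed TPM of 10 myogenic differentiation genes, Myog and Myh3 among them, averaged 3680 in control replicates 1 and 2 and 1979 in control replicates 3 and 4, and 1433 and 952.8 in the cold libraries of the same numbers. Cold was lower for all 10 of these genes. Each had an edgeR adjusted p under 0.05 in the paired fit, which called 4.07% of all genes lower. In the fit without the block 1 of them did, beside 0.072% of all genes. The study had already named Myl4, Acta1, Myh3, Tnnt1 and Mef2c among the genes lower after cold in these libraries, so their direction was known in advance. The summed fibroblast markers averaged 1084 TPM in control replicates 1 and 2 and 1492 TPM in control replicates 3 and 4, and 1114 and 1478 TPM in cold, the other way round. Of the differentiation genes 9 of 10 were higher in replicates 1 and 2 in both groups, Mymx being the exception, and of the fibroblast genes 5 of 7 were lower, Col1a1 and Postn being slightly higher. Of 6 pericyte and smooth muscle markers tested, the paired fit called 1 lower, Acta2, at −0.46 (edgeR adjusted p = 2.68e-05), and 0 higher. All 7 of these markers, mostly Acta2, summed to between 1191 and 2018 TPM in controls and between 1029 and 1323 TPM in cold, with Kcnj8 at 0 in all controls. They averaged 1933 TPM in control replicates 1 and 2 and 1267 TPM in control replicates 3 and 4, and 1284 and 1052 TPM in cold, but only 1 of the 7, Acta2, was higher in replicates 1 and 2 in both groups and 4 were lower, while the immune markers averaged 27.4 and 47.2 TPM in controls and 28.6 and 53.8 TPM in cold. Their part in the levels of Dll1, Hey1, Heyl and Notch3 was not tested. In bulk libraries, fewer cells of a type and less RNA per cell cannot be told apart.

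**Figure D4:**
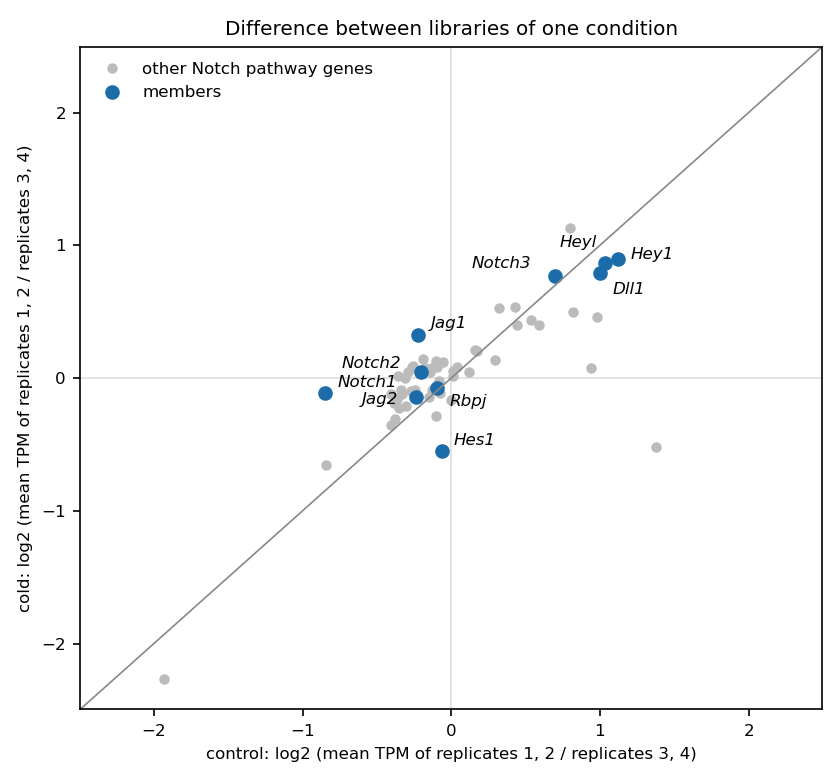
Log2 ratio of the mean TPM of replicates 1 and 2 to that of replicates 3 and 4, in control libraries (horizontal axis) and cold libraries (vertical axis), for the 10 Notch genes in blue and the 49 other pathway genes tested in grey, with the line of equal ratios. Dll1, Hey1, Heyl and Notch3 lie together at the upper right, and Rbpj lies near the origin.

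Of 60 further genes listed for the Notch pathway, 57 had values and 49 were tested. Those not tested were Notch4, Dll3, Dll4, Dlk1, Mfng, Hes2, Hes3 and Hes7, with between 0 and 0.72 TPM and at most 15 counts in any library. Without the block, 0 of 49 were called by edgeR and 5 had an unadjusted p under 0.05, beside 6.70% of all genes. In the paired fit 2 were lower in cold, Neurl1 and Hes6, and 1 was higher, Dtx4, with 12 at an unadjusted p under 0.05. Over all genes that fit called 4.07% lower and 1.26% higher, with 18.2% at an unadjusted p under 0.05, so the number of pathway genes called lay near the background. The median log2 fold change of the 49 was 0.013, with 23 below 0 and 26 above. Ranges of TPM did not overlap for 5 of 49 (10.2%, beside 4.68% of all genes), which were Neurl1 and Psen2 with cold lower and Maml1, Ctbp1 and Dtx4 with cold higher.

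Neurl1, a ubiquitin ligase of the Neuralized family that acts on Notch ligands, was lower in cold in the paired fit. It was at 1.83, 1.68, 0.78 and 1.05 TPM in control replicates 1 to 4 and at 0.35, 0.61, 0.40 and 0.51 TPM in cold. All 4 cold libraries were below all 4 controls, at 16 to 79 counts per library. The log2 fold change was −1.55 (SE 0.33, edgeR adjusted p = 0.176) without the block and −1.54 (SE 0.22, 95% interval −1.99 to −1.08, edgeR adjusted p = 9.40e-05) with it, and DESeq2 without the block gave −1.56 (adjusted p = 0.00486). In replicates 1 and 2 alone it was −1.94 (edgeR adjusted p = 2.98e-05) and in replicates 3 and 4 alone −1.002 (edgeR adjusted p = 0.645). At this low level the size depends on the pseudocount, and limma gave −1.29 on log2(TPM + 0.1) and −0.65 on log2(TPM + 1). The other 3 ligand ubiquitin ligases did not pass, with Mib1 at 27.4 TPM in controls and 28.9 TPM in cold and Neurl1b at 18.0 and 18.5 TPM.

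Hes6, a Hes family member known to oppose Hes1 and to promote myogenic differentiation, was also lower in cold in the paired fit. It was at 170, 183, 107 and 93.3 TPM in control replicates 1 to 4 and at 121, 133, 95.8 and 84.0 TPM in cold. Cold was lower in 4 of 4 pairs, with larger drops in replicates 1 and 2, and the groups overlapped. On the log2 scale, cold minus control was −0.38 (SE 0.25, edgeR adjusted p = 0.945) without the block and −0.34 (SE 0.061, 95% interval −0.47 to −0.22, edgeR adjusted p = 0.00113) with it. Without control replicate 2 the unblocked value was −0.20 and without control replicate 4 it was −0.54. Fitted alone, replicates 1 and 2 gave −0.53 (edgeR adjusted p = 1.705e-06) and replicates 3 and 4 −0.15 (edgeR adjusted p = 0.997). Hes6 was higher in replicates 1 and 2 than in replicates 3 and 4 of the controls, as were the summed differentiation markers. Hey2, the other repressor of this list that was tested, was at 7.78 TPM in controls and 8.19 TPM in cold and did not pass.

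Dtx4, a Deltex ubiquitin ligase that acts on Notch receptors, was slightly higher in cold in the paired fit. It was at 8.67, 8.86, 9.21 and 10.0 TPM in control replicates 1 to 4 and at 11.5, 10.9, 10.5 and 10.7 TPM in cold, without overlap. The log2 fold change was 0.24 (SE 0.060, edgeR adjusted p = 0.298) without the block and 0.24 (SE 0.055, 95% interval 0.12 to 0.35, edgeR adjusted p = 0.0143) with it. By side, it was 0.29 (edgeR adjusted p = 0.00790) in replicates 1 and 2 and 0.17 (edgeR adjusted p = 0.997) in replicates 3 and 4. For Neurl1, Hes6 and Dtx4 too, the difference between the sides was not tested. The Dtx4 call was lost in DESeq2 with the block, at 0.23, in limma on log2 TPM with the block, at 0.25, and without the pair of replicate 1, at 0.19, or of replicate 2, at 0.23.

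No other role of the pathway held a gene that passed. Over all 12506 genes tested, 6612 fitted changes were above 0 and 5894 below, and no shift of a whole role was tested. Of the other ligands, Dner was at 3.84 TPM in controls and 3.49 TPM in cold, and Dlk2 at 0.963 and 1.00 TPM. Among the receptor glycosyltransferases, Lfng, which tunes the response of Notch to its ligands, was the most abundant pathway gene, at 399 ± 91.2 TPM in controls and 380 ± 70.6 TPM in cold (SD, n = 4 each), and Pofut1 was at 33.1 and 33.3 TPM. Of 9 receptor cleavage genes, 7 had a fitted change below 0 with a median of −0.028, and the γ-secretase subunit genes Psenen and Ncstn had means of 96.2 and 67.3 TPM in controls and 95.2 and 66.5 TPM in cold. Of 7 nuclear coactivators, 6 were above 0 with a median of 0.12, and Snw1 was at 71.5 TPM in controls and 78.2 TPM in cold and Kat2a at 36.0 and 35.6 TPM. Of 12 corepressors, 8 were above 0 with a median of 0.055, and Ctbp1 was at 171 TPM in controls and 178 TPM in cold and Tle3 at 33.6 and 33.4 TPM. Among the inhibitors and turnover genes, Itch was at 19.3 TPM in controls and 19.9 TPM in cold, and Dtx3 at 12.9 and 11.5 TPM.

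Genes that Notch and RBPJ are known to drive in mouse SCs did not pass either. Of 6 such genes 5 were tested, Calcr being too low. Without the block 0 of 5 were called, beside 0.072% of all genes lower and 0% higher. In the paired fit 0 of 5 were called, beside 4.07% lower and 1.26% higher, so 0 lay near the background. Pax7, the transcription factor that marks SCs, was at 12.7 ± 2.17 TPM in controls and 13.5 ± 1.70 TPM in cold (SD, n = 4 each), with a log2 fold change of 0.075 (SE 0.11, edgeR adjusted p = 0.999). The collagen genes Col5a1 and Col6a1 had means of 149 and 114 TPM in controls and 152 and 110 TPM in cold. Which cells of the bulk libraries made these collagen transcripts was not tested.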

How the data were processed

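Poly(A) RNA of hamster SCs was sequenced by the study in 4 control and 4 cold libraries, as paired 150-base reads (DNBSEQ-G400). The study calls the libraries biological replicates, but the labels do not say that they come from separate animals or cultures, so p-values measure the spread between these libraries, which may be technical. The authors deposited one table of 31581 entries, of which 17590 have values. The deposited expected counts per gene are not normalized. Deposited TPM values had been scaled by the authors to the same sum in each library. Its normalized signal column, also deposited, was not used. The submitters' processing notes name HISAT and HISAT2 with no version. The counting program and the genome build are not given in the sources used here, so a RefSeq annotation was used for names only, and no coordinates are given. It held all 17590 identifiers. Every per-sample column of the table was matched to a sample by name.

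Expected counts were rounded and fitted over all genes with edgeR 4.0.16 in R 4.3.3 (filterByExpr, TMM, quasi-likelihood F test). Adjusted p-values are Benjamini-Hochberg values over the 12506 genes tested, and intervals are at 95%. Fits with DESeq2 1.42.0 and with limma 3.58.1 on log2(TPM + 0.1), and the other alternatives, are described in the closing section. Levels between genes were compared in TPM. Single genes were compared by an exact two-sided permutation test of log2(TPM + 0.1). The edgeR and DESeq2 fits with and without the block, and a limma fit with the block, were run on simulated counts. The other alternatives were not. The simulated pair effects were independent, unlike the split of these libraries. Count errors were taken from the spread between libraries.

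Groups share the replicate numbers 1 to 4 in the titles. Deviations from the group means correlated at 0.61, 0.62, 0.65 and 0.66 across genes, which are not independent replicates, between libraries of the same number. Between replicates 1 and 2 they correlated at 0.57 and 0.59, between replicates 3 and 4 at 0.43 and 0.47, and across the 2 sides between −0.55 and −0.61, so the same-number values hold the library split as well. Each was over 0.1, the limit used, and the numbers were taken to pair the libraries and an additive replicate block was fitted beside the unblocked design.

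The 10 members and the lists of other pathway genes, RBPJ-linked genes and markers were chosen with earlier results of these data known. Of the lists of pathway and RBPJ-linked genes, those are named that passed in the paired fit, and otherwise the 2 with the highest mean TPM of each role, and any marker, Pax7 included, could be named. Psen2, Maml1, Calcr and the 8 pathway genes that were not tested were named after their values were seen. Crebbp, Nrarp and Hes5 were not analysed here. Genes with the pattern most like a Notch gene were to be named only for those that passed in the paired fit, and so none are. Figures were drawn with matplotlib 3.10.9.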

Additional observations from a re-analysis of the deposited data

Results flagged for a closer look

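The Jag2 level of cold replicate 3, at 44.7 TPM, stood far from the other 3 cold libraries, with a gap to its nearest neighbour of 0.934 of the group's range, above Dixon's 95% limit for 4 samples. Control replicate 3 was also the highest control, at 43.5 TPM. Without cold replicate 3 the log2 fold change of Jag2 was 0.012 and without control replicate 3 it was 0.16, beside 0.081 with both, and none passed. In all, 26 groups of 4 values were examined, of which chance would single out about 1.3.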

How the results depend on the processing

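No change of the 10 genes was called over all 8 libraries, so a turn in sign below is that of a value within its error. Counts of calls at an adjusted p under 0.05 moved as follows. Replicates 1 and 2 alone called 1 of the 10 genes lower (Hes1) and 1 higher (Jag1), against 0 and 0. Of the 49 other pathway genes, 0 lower and 0 higher calls became 2 lower and 1 higher with the replicate block, 4 lower and 6 higher in replicates 1 and 2 alone (6.85% and 4.73% of all genes), and 1 lower with DESeq2 (0.924% of all genes). In the paired fit, leaving out one pair gave 0 to 1 lower calls among the 10 genes (Hes1 without the pair of replicate 4) and, among the other pathway genes, 0 to 1 higher calls and 2 to 3 lower calls (Lfng, at −0.13, being added without the pair of replicate 4), beside 2.71% to 4.88% of all genes lower and 0.128% to 2.56% higher, and DESeq2 or limma with the block gave 0 higher calls. No other call of the 10 genes changed with the block. Leaving out one library moved the median log2 fold change of the 10 genes between −0.022 (without control replicate 4) and 0.10 (without cold replicate 4).

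Sign turned for Dll1 (−0.012) to 0.052, 0.051 and 0.040 with limma at a pseudocount of 0.01, 0.1 (with or without a filter) and 1, to 0.0062 with the block and to 0.17 in replicates 3 and 4 alone. In replicates 3 and 4 alone it also turned for Notch2 (−0.036), Jag1 (−0.18) and Notch1 (−0.25), and in replicates 1 and 2 alone for Heyl (−0.062). With one library left out, the log2 fold change ran from −0.20 to 0.20 for Dll1, from −0.12 to 0.34 for Hey1, from −0.19 to 0.26 for Heyl, from −0.011 to 0.15 for Jag1, from −0.11 to 0.21 for Notch1 and from −0.0008 to 0.33 for Notch3. For Dll1 the value was above 0 without control replicate 1 or 2 or cold replicate 3 or 4. For Hey1 and Heyl it was below 0 without cold replicate 1 or 2 or control replicate 3 or 4. It was below 0 for Jag1 without cold replicate 2, for Notch3 without control replicate 4, and for Notch1 without control replicate 1 or 2 or cold replicate 2 or 4. In the paired fit with one pair left out, it ran from −0.42 to −0.15 for Hes1, from −0.023 to 0.15 for Jag1, from −0.054 to 0.076 for Dll1, from −0.055 to 0.10 for Heyl and from −0.085 to 0.16 for Notch1. For Notch3 the range was 0.071 to 0.26, for Hey1 0.062 to 0.18 and for Notch2 0.0083 to 0.087. Without the block, Notch2 ran from 0.026 to 0.068 with one library left out. Sign held for Jag2, Rbpj and Hes1 in each alternative tried, those with RLE factors, library totals and other filters on low counts included. The cause of these turns was not tested. Notch1, Heyl and Notch3 rest on the fewest counts.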
